A study of Mus musculus with 6 samples.

Results

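The 9 genes described here, Parp1, Parp2, Parp3, Parp8, Parp9, Parp10, Parp11, Parp12 and Parp14, belong to the PARP family, whose enzymes transfer ADP-ribose from NAD+ to other molecules. They were picked by name from the 19937 genes that the platform annotation pairs with a row of a single symbol, and each had exactly 1 row. All 9 passed the filter on low values that left 15037 genes for testing. The choice was made with the difference between the groups known, so the members' differences and calls below are a description and support nothing by themselves.

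The cells were regulatory T cells (Tregs), CD4+ TCRβ+ CD25+ cells sorted from lymph nodes and spleen on day 5 after transfer of total peripheral T cells of wild-type mice, with C57BL/6 given as the strain. The competent group of 3 arrays came from CD3ε-/- recipients that express MHC class II, and the deficient group of 3 arrays from recipients that lack both CD3ε and MHC class II, with an age of 6 to 8 weeks given for both. Recipients of both groups therefore had no T cells of their own, and those of the deficient group could not present peptide to CD4+ T cells on class II molecules. Because total T cells were transferred and CD25 is also expressed by activated conventional T cells, the sort may hold more than Tregs, and the labels do not say whether an array is 1 recipient or a pool. Whether a transcript fell because fewer cells carried it or because each cell held less of it cannot be told apart in such bulk samples.

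PARP proteins fall into classes with distinct work. PARP1, PARP2 and PARP3 are switched on by breaks in DNA and help to repair them, PARP1 and PARP2 by building chains of ADP-ribose that draw in repair proteins. Parp9, Parp10, Parp11, Parp12 and Parp14 are genes that interferons induce; the enzymes among their products add single ADP-ribose units, and several of them act against viruses. In mouse Tregs, PARP1 has been described as a negative regulator of the lineage factor Foxp3.

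In the cells from MHC II-deficient recipients all 5 interferon-induced members were higher, from 1.40-fold for Parp9 to 2.12-fold for Parp12. Of the 3 repair members, Parp1 was 1.55-fold lower, while Parp2 and Parp3 differed by less than the spread between arrays. Parp8, a member of neither class whose function is little known, was 1.54-fold higher. In limma's fit over all 15037 genes, 6 members were past the threshold (adjusted p under 0.05) as higher and 1 as lower. Over all tested genes 3.37% were past it in either direction, 1.34% as higher and 2.03% as lower. The groups did not overlap for 7 of the 9 members, 6 higher and 1 lower, against 24.3% of all tested genes, 11.4% as higher and 12.9% as lower. The median difference of the 9 members was 0.50 on the log2 scale, against 0.02 over all tested genes.

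The start regions of the members were examined because the interferon-induced members moved together, and those of Parp11, Parp12 and Parp1 are printed below. Windows from 250 bases before to 50 bases after the gene start were taken from RefSeq (GRCm38.p6) and matched for 6 of the 9 members, all but Parp9, Parp10 and Parp14. Parp11 has 2 such windows, so that there are 7 in all. They were searched on both strands for the core of the interferon-stimulated response element, GAAANNGAAA, which interferon-activated transcription factors bind, and for the interferon-gamma activated site, TTCNNNGAA. Capitals mark matches, and all 4 sequences read 5′ to 3′ along the strand of the gene.
Parp11 first window, chr6:127446590-127446889, plus strand: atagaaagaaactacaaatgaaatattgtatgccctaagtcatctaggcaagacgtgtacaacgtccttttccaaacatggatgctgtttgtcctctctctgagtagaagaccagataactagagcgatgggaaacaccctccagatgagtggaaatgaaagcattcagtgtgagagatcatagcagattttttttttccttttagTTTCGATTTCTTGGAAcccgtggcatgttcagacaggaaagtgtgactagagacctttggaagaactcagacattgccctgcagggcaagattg
Parp11 second window, chr6:127453377-127453676, plus strand: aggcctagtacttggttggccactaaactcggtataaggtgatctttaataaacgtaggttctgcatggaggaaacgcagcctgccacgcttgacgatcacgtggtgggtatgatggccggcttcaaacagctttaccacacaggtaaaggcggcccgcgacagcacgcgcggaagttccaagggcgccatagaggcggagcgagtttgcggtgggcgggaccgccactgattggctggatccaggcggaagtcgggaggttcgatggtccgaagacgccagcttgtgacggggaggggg
Parp12, chr6:39118300-39118599, minus strand: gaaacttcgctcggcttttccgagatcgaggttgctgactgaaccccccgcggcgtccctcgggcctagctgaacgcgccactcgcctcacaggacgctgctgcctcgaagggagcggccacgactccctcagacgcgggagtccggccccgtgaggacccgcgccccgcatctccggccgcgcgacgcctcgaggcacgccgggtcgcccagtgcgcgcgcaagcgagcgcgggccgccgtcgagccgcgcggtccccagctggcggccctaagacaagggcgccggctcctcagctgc
Parp1, chr1:180568641-180568940, plus strand: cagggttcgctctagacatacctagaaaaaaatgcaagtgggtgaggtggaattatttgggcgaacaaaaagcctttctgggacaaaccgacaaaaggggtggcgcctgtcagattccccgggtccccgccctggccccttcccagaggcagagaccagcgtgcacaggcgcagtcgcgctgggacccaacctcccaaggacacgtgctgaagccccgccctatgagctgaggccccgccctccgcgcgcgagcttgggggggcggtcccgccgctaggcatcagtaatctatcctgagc

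Of the 7 windows, 1 held each motif, and in both cases it was the first window of Parp11. The response element core lay at positions -44 to -35 from the start, on the minus strand, and the activated site at -37 to -29, so that they overlap by 3 bases. Among all 32851 windows of the same length, 3.44% held the first motif and 8.30% the second. The window of Parp12, the member with the largest increase, held neither in these 300 bases, nor did those of Parp1, Parp2, Parp3 and Parp8. The Parp12 window had a GC content of 73.7% with 46 CpG dinucleotides and that of Parp8 72.3% with 37, where the median of all windows was 52.7% with 7. The first Parp11 window stood on the other side of that median, at 42.0% with 5 CpGs. Its second window stood above it, at 59.0% with 25. The windows of Parp1 (62.0% with 20), Parp2 (60.0% with 25) and Parp3 (57.7% with 16) were above the median too. Such matches describe the sequence and are not binding sites.

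Parp12 (row 10544133) encodes a zinc finger PARP with antiviral activity. It stood at log2 values of 8.03, 8.45 and 8.24 in competent arrays 1 to 3, and at 9.58, 9.09 and 9.30 in deficient arrays 1 to 3. The lowest deficient array lay 0.64 above the highest competent one. The difference was 1.08 (SE 0.15, 95% interval 0.75 to 1.42, n = 3 per group), which is larger than that of 99.6% of the tested genes. Its call held without each of the 6 arrays, with differences from 0.95 to 1.20.

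Parp14 (row 10439249) encodes a large PARP with macrodomains, modules that bind ADP-ribose, and is known as a coactivator of STAT6. The competent arrays stood at 9.06, 9.34 and 9.30, and the deficient arrays at 10.19, 9.87 and 10.01. The groups were 0.53 apart at their nearest arrays. The difference was 0.79 (SE 0.12, 95% interval 0.52 to 1.06), 1.73-fold, and it stayed between 0.70 and 0.86, past the threshold, without each single array.

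Parp11 (row 10542040) encodes a PARP that has been linked to the nuclear envelope and to the turnover of a type I interferon receptor chain. Competent arrays were at 7.33, 7.28 and 7.70 and deficient arrays at 8.37, 8.09 and 8.14, so that competent 3 came closest to the other group, 0.39 below its lowest array. The difference of 0.76 (SE 0.13, 95% interval 0.46 to 1.07) was 1.70-fold. Its call ended without competent 1 (0.71), competent 2 (0.68) or deficient 1 (0.68), while the values stayed near that with all arrays.

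Parp9 and Parp10 had the smallest increases of the 5. Parp9 (row 10435457), whose product pairs with the ubiquitin ligase DTX3L, stood at 8.51, 8.48 and 8.52 in the competent and at 9.12, 8.85 and 8.996 in the deficient arrays. The competent arrays lay close together (SD 0.02), and the groups did not overlap. The difference was 0.49 (SE 0.10, 95% interval 0.26 to 0.71). Parp10 (row 10429843), a mono-ADP-ribosyltransferase, stood at 7.07, 6.99 and 6.91 against 7.60, 7.36 and 7.49, again without overlap. Its difference was 0.50 (SE 0.10, 95% interval 0.26 to 0.73). These calls were the least stable of the group. That of Parp9 ended without any array but competent 3 (0.42 to 0.55), that of Parp10 without any of the 6 arrays (0.44 to 0.56), and both ended when each array was centred on its median (0.43 and 0.44).

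**Figure D1:**
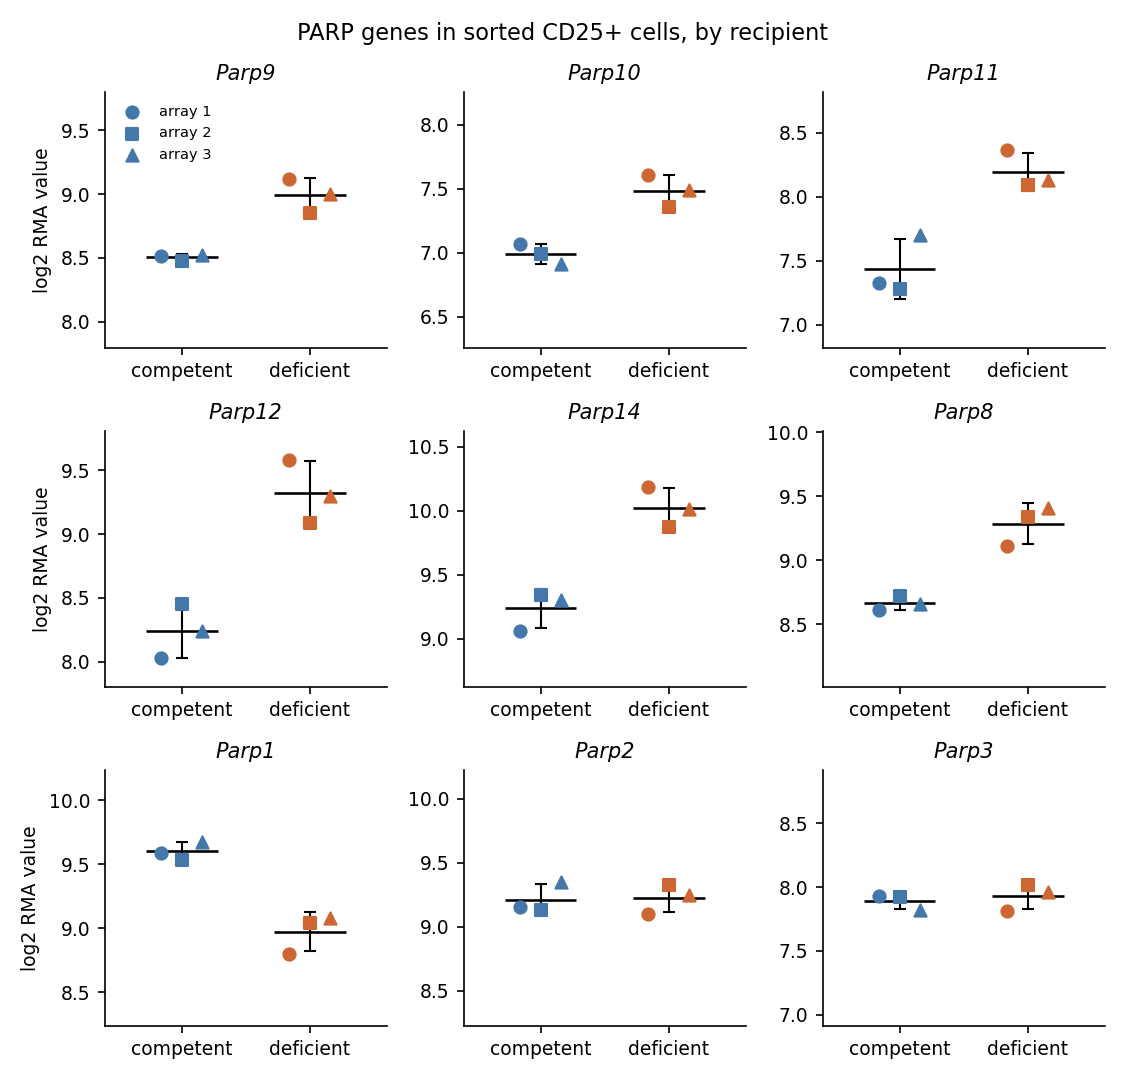
Log2 RMA value (y axis, a span of 2 units in every panel) of each PARP gene in the 3 competent (blue) and 3 deficient (orange) arrays; the marker shape gives the array number, horizontal lines are means and bars are 1 SD. The groups are apart for the 5 interferon-induced members, Parp8 and Parp1, and overlap for Parp2 and Parp3.

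Within the deficient group the 5 interferon-induced members ranked the arrays the same way at both ends. Deficient 1 was the highest and deficient 2 the lowest array for 5 of 5. The 5 genes were measured on the same arrays, and the share of all tested genes with this order was not computed. Relative to the mean of the competent arrays, the average of the 5 stood at 0.89 in deficient 1, 0.57 in deficient 2 and 0.71 in deficient 3, and between -0.08 and 0.05 in the competent arrays. Among the genes that carry the interferon response, Stat2 and Irf9, whose products act in the same transcription factor complex, were also highest in deficient 1 and lowest in deficient 2. Irf7, a factor that amplifies the response, was highest in deficient 1 and lowest in deficient 3. Stat2 (difference 1.26, SE 0.12, limma adjusted p = 0.0014) and Irf7 (1.78, SE 0.15, limma adjusted p = 0.00085) rose, and Irf9 stood at 0.41 (SE 0.14, limma adjusted p = 0.15). With the mean of the myeloid markers as a covariate Irf9 stood at 0.17 (SE 0.20, limma adjusted p = 0.72). In that fit Stat2 (1.15, SE 0.18, limma adjusted p = 0.044) stayed past the threshold. So did Irf7 (1.36, SE 0.17, limma adjusted p = 0.016).

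The 5 tested genes outside the family whose values over the 6 arrays were most like the mean of the interferon-induced members were Arap2, Mx1, Epc1, Rsad2 and Stat2. Their Pearson correlations ran from 0.995 for Stat2 to 0.998 for Arap2, over 6 arrays that fall into 2 separate groups. Mx1 and Rsad2, a pair of antiviral interferon-stimulated genes, had differences of 1.40 (SE 0.17) and 1.39 (SE 0.17). Arap2 (0.28, SE 0.09, limma adjusted p = 0.14) and Epc1 (0.18, SE 0.09, limma adjusted p = 0.31) followed the same pattern with small differences that did not pass the threshold.

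**Figure D2:**
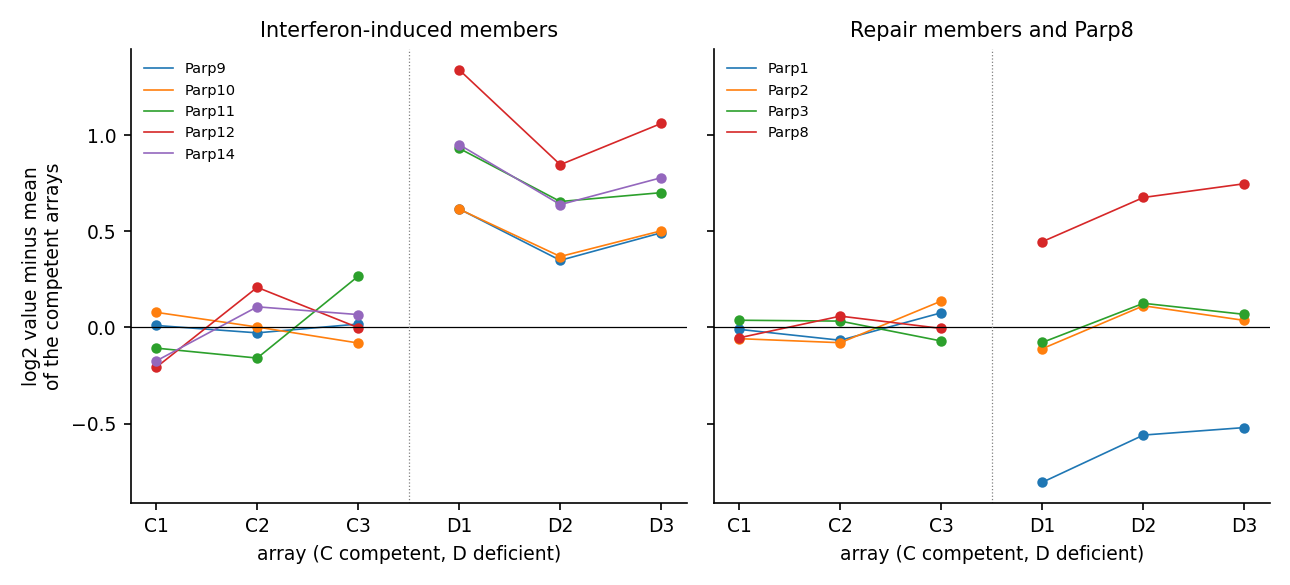
Log2 value of each member minus its mean over the competent arrays (y axis) in the 3 competent (C1 to C3) and 3 deficient (D1 to D3) arrays; lines join the values of 1 gene and imply no order of the arrays. The interferon-induced members (left) are highest in D1 and lowest in D2, while Parp8, Parp1, Parp2 and Parp3 (right) have their lowest deficient value in D1.

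Parp1 (row 10352242) was the 1 member that was lower. It stood at 9.59, 9.53 and 9.68 in the competent and at 8.80, 9.04 and 9.08 in the deficient arrays. The highest deficient array lay 0.45 below the lowest competent one. The difference was -0.63 (SE 0.11, 95% interval -0.87 to -0.39), with 1.40% of tested genes lower still. Its call ended without competent 1 (-0.63), competent 2 (-0.66) or deficient 1 (-0.54).

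Parp2 (row 10414497), the closest relative of Parp1 in function, stood at 9.15, 9.13 and 9.35 against 9.10, 9.32 and 9.25. The groups overlapped, and the difference was 0.01 (SE 0.11, 95% interval -0.23 to 0.25). Parp3 (row 10596492), which acts at double-strand breaks, stood at 7.93, 7.92 and 7.82 against 7.81, 8.02 and 7.96. Here too the groups overlapped, with a difference of 0.04 (SE 0.10, 95% interval -0.18 to 0.26). Both intervals lie above that of Parp1. The signs of both differences turned under median centring (-0.041 and -0.016), so no direction is given for either.

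Parp8 (row 10412345) stood at 8.61, 8.72 and 8.66 in the competent and at 9.11, 9.34 and 9.41 in the deficient arrays, with a gap of 0.39 between the groups. The difference was 0.62 (SE 0.11, 95% interval 0.38 to 0.86). Within the deficient group its order was unlike that of the interferon-induced members, since deficient 1 was its lowest array and deficient 3 its highest. Its call ended without competent 1 (0.60), competent 2 (0.65), deficient 2 (0.60) or deficient 3 (0.56).

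Some cell cycle genes were lower beside Parp1. Of 12 genes that mark proliferating cells 11 were tested, and all 11 had negative differences. By limma 4 were past the threshold and 7 were not, where 2.03% of all tested genes were past it as lower. At an unadjusted p under 0.05 in limma, 9 of the 11 were lower. Over all 15037 tested genes 2842 were under that p in either direction, which is the background for the unadjusted counts of the other lists too. The mean log2 value of the 11 lay between 9.82 and 10.12 in the competent and between 9.44 and 9.65 in the deficient arrays. Deficient 1, the lowest array for Parp1, was also the lowest for 6 of the 11. In deficient arrays 1 to 3 the mean of the cell cycle genes stood at 9.44, 9.50 and 9.65, the same order as Parp1. In competent arrays 1 to 3 that mean stood at 10.12, 9.99 and 9.82, and Parp1 at 9.59, 9.53 and 9.68. Competent 3 was thus the highest for Parp1 and the lowest for that mean. Competent 1 lay above competent 2 for both. The part of proliferation in the difference of Parp1 was not tested.

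The 5 tested genes most like the mean of Parp1, Parp2 and Parp3 were Agfg1, Cep250, Ahr, Dkkl1 and Mrpl40, with Pearson correlations from 0.987 to 0.995 over the 6 arrays. No difference among the 5 was past limma's threshold, though the unadjusted 95% intervals of all but Cep250 excluded 0. The aryl hydrocarbon receptor gene Ahr stood at -0.67 (SE 0.17, limma adjusted p = 0.067) and Dkkl1 at -0.60 (SE 0.14, limma adjusted p = 0.053).

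The other genes of the PARP superfamily were not past the threshold. Of 7, Parp4 shares its row with another gene and was left out, and 0 of the 6 tested genes passed limma's test, with 1 at an unadjusted p under 0.05. That gene was Parp6, at 7.80, 8.15 and 8.25 in the competent and 8.42, 8.53 and 8.54 in the deficient arrays. Its groups did not overlap, and its difference was 0.43 (SE 0.13, 95% interval 0.14 to 0.72, limma adjusted p = 0.11). Zc3hav1, the antiviral RNA-binding protein ZAP, which is itself an interferon-stimulated gene, stood at 0.18 (SE 0.11, 95% interval -0.07 to 0.44, limma adjusted p = 0.42). The tankyrase genes Tnks (0.12) and Tnks2 (-0.01) and Parp16 (0.01), a PARP of the endoplasmic reticulum, each had a 95% interval that included 0. So did Tiparp, a target of the aryl hydrocarbon receptor, at -0.15 (SE 0.16). Its value was not stable, at -0.54 (SE 0.19, limma adjusted p = 0.26) with the myeloid covariate and from -0.29 to -0.035 with 1 array left out, with -0.29 without competent 3, -0.28 without deficient 2 and -0.035 without competent 2 or deficient 3. The median of the 6 was 0.07.

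**Figure D3:**
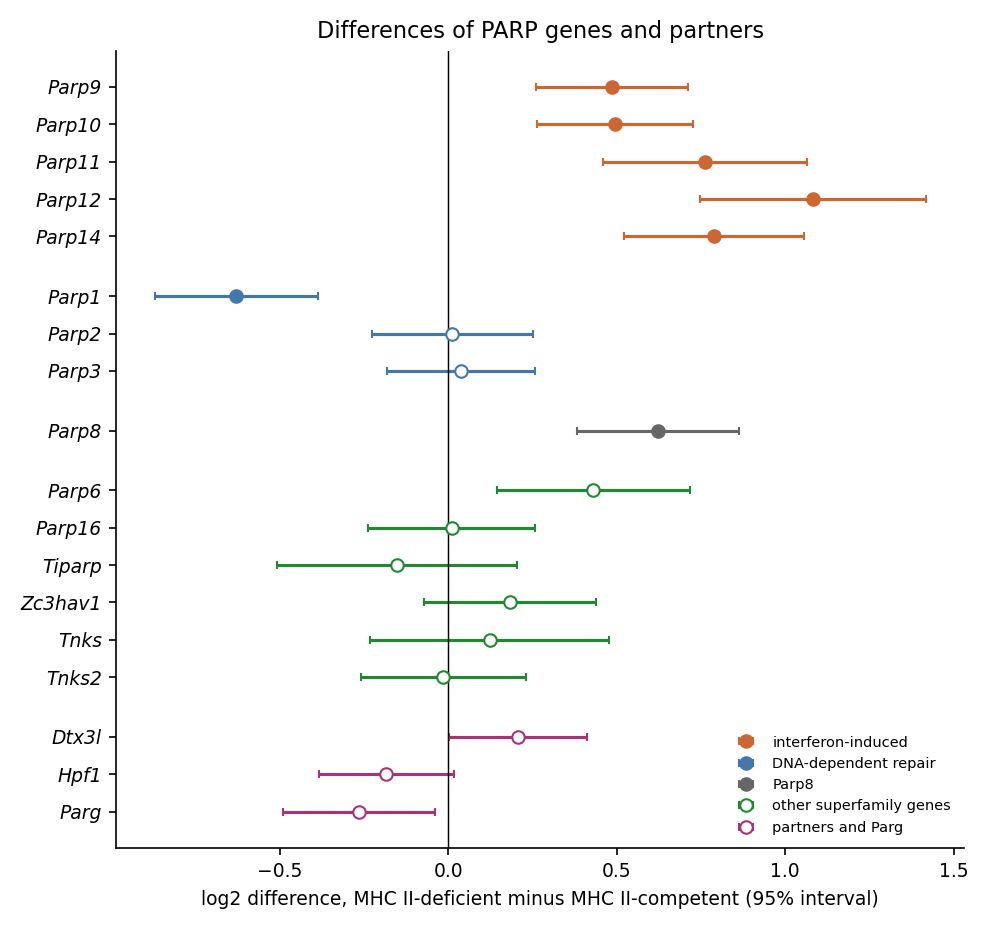
Log2 difference, MHC II-deficient minus MHC II-competent (x axis), with its 95% interval from limma, for the 9 members, the 6 other tested superfamily genes and 3 partner genes; filled points are past the threshold over all genes. The 5 interferon-induced members lie between 0.49 and 1.08, Parp8 at 0.62 and Parp1 at -0.63, and all other points are open.

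On chromosome 16 of the mouse, Dtx3l lies between Parp14 and Parp9 with no other protein-coding gene between them. Dtx3l stood at 9.01, 9.09 and 9.14 in the competent and at 9.32, 9.24 and 9.30 in the deficient arrays, so the groups were apart by a small step. Its difference was 0.21 (SE 0.09, 95% interval 0.0038 to 0.41, limma adjusted p = 0.26), next to 0.79 for Parp14 and 0.49 for Parp9. Whether it differs from these was not tested. The protein-coding genes that adjoin the cluster, Hspbap1 next to Parp14 (-0.0023, SE 0.12) and Kpna1 next to Parp9 (-0.07, SE 0.11), had values near 0. The next genes out, Slc49a4 beyond Hspbap1 (0.28, SE 0.13, limma adjusted p = 0.26) and Wdr5b beyond Kpna1 (0.31, SE 0.11, limma adjusted p = 0.16), had values above that of Dtx3l and did not pass the threshold.

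Genes that act with PARP proteins or undo their work stayed below the threshold. Of 12 partners and erasers 11 were tested and 0 passed limma's test, with 1 higher and 1 lower at an unadjusted p under 0.05. Hpf1, whose product directs PARP1 and PARP2 to serine residues, stood at 10.81, 10.85 and 10.92 against 10.68, 10.66 and 10.69. The groups were apart, and the difference was -0.18 (SE 0.09, 95% interval -0.38 to 0.02, limma adjusted p = 0.31). Parg, which encodes the enzyme that degrades ADP-ribose chains, stood at 8.85, 8.83 and 9.02 against 8.72, 8.64 and 8.55. It too was lower in every deficient array, by 0.27 on average (difference -0.27, SE 0.10, limma adjusted p = 0.19). The median of the list was -0.10.

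NAD+ is the substrate of all active PARP enzymes. Of 14 genes of NAD+ metabolism 12 were tested and 0 passed limma's test, with 2 higher at an unadjusted p under 0.05 and a median difference of 0.06. Nampt, the rate-limiting enzyme of NAD+ salvage, stood at 8.80, 9.07 and 8.72 in the competent and at 9.37, 9.13 and 9.40 in the deficient arrays. Its difference was 0.44 (SE 0.12, 95% interval 0.16 to 0.72, limma adjusted p = 0.098), and it passed after quantile normalization (0.52, limma adjusted p = 0.042). Cd38, which encodes an NAD+-consuming ectoenzyme, was not analysed here.

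Of 20 genes of base excision and strand break repair, the process that PARP1 serves, 18 were tested. By limma's test 1 fell and 0 rose, with 5 lower and 0 higher at an unadjusted p under 0.05. Over all 15037 tested genes 2.03% were past the threshold as lower, and 2842 were under that unadjusted p in either direction. The gene that fell was Lig1, the DNA ligase of replication and long-patch repair, from 9.22, 9.24 and 9.15 to 8.64, 8.78 and 8.82. Its difference was -0.45 (SE 0.09, limma adjusted p = 0.036). The call ended without any array but competent 3 (-0.49 to -0.40), under quantile normalization (-0.37), with the replicate number as a block (-0.45, limma adjusted p = 0.062) and after adjustment for the myeloid markers (-0.42). Xrcc1, the scaffold that PARP1 recruits, stood at 0.01 (SE 0.10, 95% interval -0.22 to 0.24) and its partner ligase gene Lig3 at -0.04 (SE 0.10, 95% interval -0.26 to 0.18). Neil3 (-0.64, limma adjusted p = 0.15), Apex1 (-0.50, limma adjusted p = 0.070) and Fen1 (-0.47, limma adjusted p = 0.14) had larger decreases than Lig1 and did not pass. The median of the list was 0.02, with 10 positive and 8 negative differences, from -0.64 to 0.26.

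Markers of myeloid cells were mostly higher in the deficient arrays, and few passed the test. Of 17 tested, 16 had positive differences, and 13 were higher and 1 lower at an unadjusted p under 0.05. Past limma's threshold was 1, Adgre1 (1.39, SE 0.29, limma adjusted p = 0.035), where 1.34% of all tested genes were past it as higher. The 1 that was lower was Itgam (-0.43, SE 0.13, limma adjusted p = 0.12), whose groups did not overlap. The mean of the 17 lay between 5.93 and 6.74 in the competent and between 6.74 and 7.54 in the deficient arrays, so that the groups met where competent 2 and deficient 3 stood. Their part in the members' differences was not tested beyond the covariate fit that follows. In the deficient group, deficient 1 was highest for 14 of the 17, as it was for all 5 interferon-induced members. The lowest array was deficient 3 for 15 of the 17 and deficient 2 for the 5 members. With the mean of the myeloid markers as a covariate no member passed the threshold, although 6 were higher and 1 lower at an unadjusted p under 0.05. The differences were then 0.91 for Parp12, 0.73 for Parp14, 0.89 for Parp11, 0.47 for Parp9, 0.41 for Parp10, 0.74 for Parp8 and -0.43 for Parp1, and the SE of the 9 members went from between 0.10 and 0.15 to between 0.15 and 0.23. Over all genes 58 passed in that fit, against 507 without the covariate. At an unadjusted p under 0.05 in limma, the counts over all 15037 tested genes were 2148 with the covariate and 2842 without it.

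**Figure D4:**
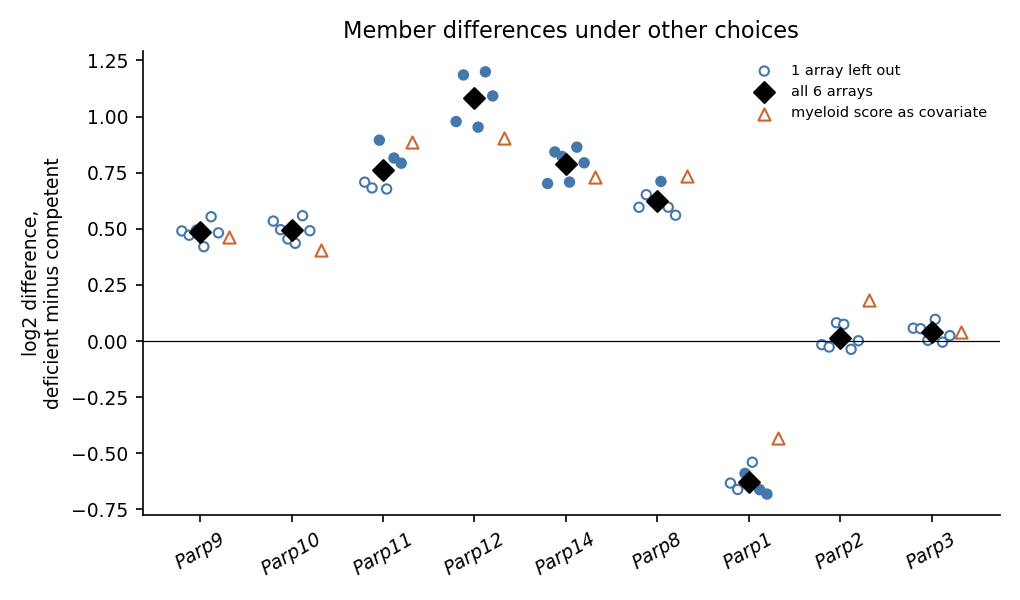
Log2 difference, deficient minus competent (y axis), of each member with all 6 arrays (diamonds), with 1 array left out (circles) and with the mean of the myeloid markers as a covariate (triangles); filled circles and triangles have a limma adjusted p under 0.05. Parp12 and Parp14 keep filled circles throughout, all triangles are open, and the values of Parp2 and Parp3 with 1 array left out lie on both sides of 0.

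The remaining facts of the arrays are brief. Array medians lay between 6.11 and 6.25, and the first principal component held 45.7% of the variance. All 8 T cell and Treg markers were measured and had negative differences, and 0 passed limma's test. Their mean lay between 10.94 and 11.13 in the competent and between 10.86 and 10.94 in the deficient arrays. Cd3e (-0.07), Cd4 (-0.08) and Foxp3 (-0.06) had overlapping groups. At an unadjusted p under 0.05, 3 were lower, Ctla4 (-0.33), Ikzf2 (-0.29) and Il2ra (-0.27). The groups did not overlap for 4 of the 8, against 24.3% of all tested genes. Of the CD8 T and NK cell markers 4 were tested, Cd8a (0.32), Cd8b1 (0.26), Nkg7 (0.41) and Eomes (0.32). By limma 0 of the 4 passed the threshold, with 3 higher at an unadjusted p under 0.05, and their mean lay between 7.37 and 7.49 in the competent and between 7.71 and 7.85 in the deficient arrays, without overlap. Of the B cell markers 3 were tested and 0 passed limma's test, with Cd79a (0.46) higher and Cd79b (-0.39) lower at an unadjusted p under 0.05. Ms4a1, Blnk, Ncr1 and Klrb1c lay under the filter. The part of such cells in the members' differences was not tested.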

How the data were processed

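RNA (100 ng per array, per the labels' protocols) of 6 preparations was hybridised to single-colour Affymetrix whole-transcript arrays. The deposited log2 values were made by the authors with the R package affy and RMA, per the submitters' processing notes; versions, annotation and log base are not given in the sources used here, and base 2, that of RMA output, was assumed from the range of 2.40 to 13.3. Of 28101 rows, 21640 had 1 gene symbol, 1321 several and 5140 none; symbols were updated by Entrez identifier from a GRCm38.p6 table for 21553 rows. The row with the highest mean stood for a gene, and genes with a mean under 5.21, the 25th percentile of these rows, were left out. limma 3.58.1 in R 4.3.3 (lmFit, eBayes, no covariate) was fitted to all 15037 genes and tested on simulated data. Adjusted p-values are Benjamini-Hochberg adjusted over all of them. Errors are limma's moderated SE, and intervals and p-values use 9.40 total degrees of freedom, of which 4 are residual. The number of arrays limits the precision. The members and lists were chosen with earlier results of these data known. Named genes are the members, all other superfamily genes, the list genes past the threshold, a fixed set (Dtx3l, Hpf1, Parg, Xrcc1, Lig3, Nampt, Cd38, Stat2, Irf9, Irf7; 1 further item is not reported here) and the 5 genes most like each class by Pearson correlation. The neighbours Hspbap1, Kpna1, Slc49a4 and Wdr5b, the repair genes Neil3, Apex1 and Fen1 and the single markers named were added after their values were seen. Alternatives were 3 filters or row choices, 2 normalizations, another prior, array weights, a replicate block, a myeloid covariate and each array left out. A planned comparison of the proteins was not run. The labels name the replicates as biological but do not say what each holds, so the tests speak only to the variation among these 6 preparations.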

Additional observations from a re-analysis of the deposited data

How the results depend on the processing

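The count of all genes past the threshold was 507, from 159 to 708 with 1 array left out (249 without competent 1, 173 without competent 2, 159 without deficient 1, 213 without deficient 2 and 320 without deficient 3) and 58 with the mean of the myeloid markers as covariate. Of the members, 6 higher and 1 lower passed, from 2 to 5 higher and from 0 to 1 lower with 1 array left out, and 0 and 0 with the myeloid covariate (6 and 1 at an unadjusted p under 0.05 in limma); the other settings gave 4 to 6 higher and 1 lower. For the other superfamily genes array weights gave 1 higher (Parp6, 0.52), for NAD+ metabolism quantile normalization gave 1 (Nampt). For base excision repair the count of lower genes was 0 under quantile normalization and with the myeloid covariate (5 and 2 at an unadjusted p under 0.05), 2 with array weights (Apex1 and Lig1), and 0 to 1 with 1 array left out (Lig1 without competent 3, Apex1 without deficient 3). The cause was not tested. Signs turned only for genes that had not passed. Under median centring they were Parp2 (-0.041), Parp3 (-0.016), Parp16 (-0.044) and Xrcc1 (-0.045), under quantile normalization Parp16 (-0.045) and Tnks2 (0.070), with array weights Parp16 (-0.038) and Xrcc1 (-0.019), and with the myeloid covariate Zc3hav1 (-0.054). With 1 array left out, values on both sides of 0 were found for Parp2 (-0.037 to 0.082), Parp3 (-0.0048 to 0.097), Parp16 (-0.061 to 0.095), Tnks (-0.061 to 0.24), Tnks2 (-0.092 to 0.048), Xrcc1 (-0.056 to 0.063) and Lig3 (-0.090 to 0.016). Over 25 named genes and 15 alternatives, 311 of 374 values kept their direction and side of the threshold.

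Same-numbered arrays of the 2 groups did not deviate together (correlations of -0.02, -0.14 and 0.07), so the numbers were not taken as pairs. With the replicate number as a block 564 genes passed, with 6 members higher and 1 lower; in the lists Lig1 lost its call and Neil3 passed (-0.64, limma adjusted p = 0.022).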
